A study of Saccharomyces cerevisiae with 6 samples.

Results

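Nucleosomes close to the chromosome ends of budding yeast, Saccharomyces cerevisiae, were followed through the depletion of histone H3. The list came from the nucleosomes that the authors called in wildtype cells at 0 h, and a nucleosome was a member when its dyad, the centre of the wrapped DNA, lay within 20 kb of either end of its chromosome. Of 52167 called nucleosomes, 2692 met this rule at the 32 ends of the 16 nuclear chromosomes, and 49443 lay further inside and are called internal here. A further 32 nucleosomes, in stretches of chromosome 3 around the silent mating-type loci, were left out. The end of a chromosome was set as the last position covered by a read in any of the 6 libraries, so membership rests on distance alone and not on an annotated telomere, X element or Y' element.

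The H3 shutoff strain (DCB200.1) lacks HHT1, 1 of the genes for histone H3, and carries the other gene, HHT2, under the GAL1 promoter, which dextrose represses. Wildtype cells (YEF473A) went through the same change of medium. Both strains were grown in galactose and moved to dextrose, and MNase-treated chromatin from formaldehyde-fixed cells was sequenced at once (0 h) and after 3 h. The H3 shutoff strain had 2 cultures, each sampled at both times and called pair 1 and pair 2 here, while the wildtype strain had 1 culture. Every value from wildtype therefore lacks a replicate, and the move to dextrose is shared by both strains. The study's own description has the H3 shutoff cells stop dividing in dextrose while wildtype cells go on, so H3 depletion and arrest cannot be told apart in these libraries.

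Yeast chromosomes end in short telomeric repeats bound by Rap1, which brings in the Sir proteins that silence neighbouring chromatin. Inside the repeats lie X elements, at every end, and Y' elements, at some ends, which encode the YRF1 helicases. Further in are gene families whose members resemble each other closely, among them PAU (seripauperins), COS (membrane proteins), FLO (flocculins), HXT (hexose transporters) and MAL (maltose use). Reads from such repeated DNA align equally well to several ends. With Bowtie at its default settings each of them is placed once, so values at ends with shared sequence are not independent measurements.

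Each library had been cut by the authors to the same number of aligned reads, so the values are shares of a library and not amounts of histone. The chromosome ends took 5.51% of the reads at 0 h and 5.32% at 3 h in H3 shutoff pair 1, 5.45% and then 5.31% in pair 2, and 5.61% and then 5.60% in wildtype. Reads had been extended to a mean fragment length of 170 bp (0 h) and 158 bp (3 h) in pair 1, of 172 bp and 165 bp in pair 2, and of 174 bp at either time in wildtype. That length enters the position of every read centre, and its part in the changes below was not tested. The share of distinct intervals among the reads at the ends was between 39.9% and 55.4% across the libraries, against 46.6% to 65.1% in the interior, and identical intervals cannot be separated here into copies of 1 molecule, repeated DNA and sharply cut nucleosomes. No 500 bp window, near or far from an end, lacked reads in 1 strain while holding them in the other. This was 0 of 24148 windows in either direction. The scan did not pick up HHT1 either, which the H3 shutoff strain lacks, and reads of repeated DNA can fill a missing copy. It therefore cannot show that no stretch is missing from an end.

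Readouts of 3 kinds were taken, each at the wildtype 0 h positions in all libraries. The count of a nucleosome sums the read centres that lie no more than 50 bp from its dyad. Its fuzziness is the SD of the read centres within 87 bp of the dyad, so a larger value means a less sharply placed nucleosome. Regularity is the correlation of the smoothed read-centre density with itself shifted by 172 bp, the wildtype repeat length, and is high where nucleosomes form an even array. A change is 3 h minus 0 h of the same culture, on the log2 scale with 1 read added for counts, and a relative change has the median of the internal nucleosomes or segments taken off. Of the members, 2583 had more than 5 read centres in wildtype at 0 h and entered these medians, as did 48782 internal nucleosomes.

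At 0 h the ends were less regular than the interior in every library, whereas their counts were close to internal counts. The median member held 56 and 57 read centres in the H3 shutoff libraries and 61 in wildtype, beside 51, 57 and 59 for internal nucleosomes. Median regularity over the 32 ends was 0.311 and 0.350 in the H3 shutoff libraries and 0.367 in wildtype, and over internal segments it was 0.400, 0.411 and 0.471. The range over single ends was wide, from 0.109 to 0.510 in pair 1, from 0.137 to 0.527 in pair 2 and from 0.145 to 0.573 in wildtype.

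The profile from the end inwards, in steps of 2 kb, had its lowest regularity in the outermost kilobases, with a smaller and uneven shortfall further in. In the first 2 kb the median regularity was −0.0262 and 0.0618 in the H3 shutoff libraries at 0 h and 0.0260 in wildtype, which is close to no periodicity at all. From 2 to 4 kb it was 0.178, 0.207 and 0.178 in the same libraries. From 10 to 12 kb it was 0.302, 0.404 and 0.414, near the medians of internal steps of 0.340, 0.352 and 0.415. Steps on either side were lower than these internal medians, with 0.217, 0.179 and 0.241 from 6 to 8 kb. From 12 to 14 kb the values were 0.255, 0.268 and 0.312. Counts were also low in the first 2 kb, with medians of 32, 35 and 36, and were between 49 and 72.5 in the other steps. The share of distinct intervals was between 30.5% and 42.1% in the first 2 kb and was no lower than 38.7% beyond 6 kb in any library. The plot of levels by distance shows regularity climbing over the first steps in all 6 libraries, and counts climbing most at 0 h and in wildtype.

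**Figure D1:**
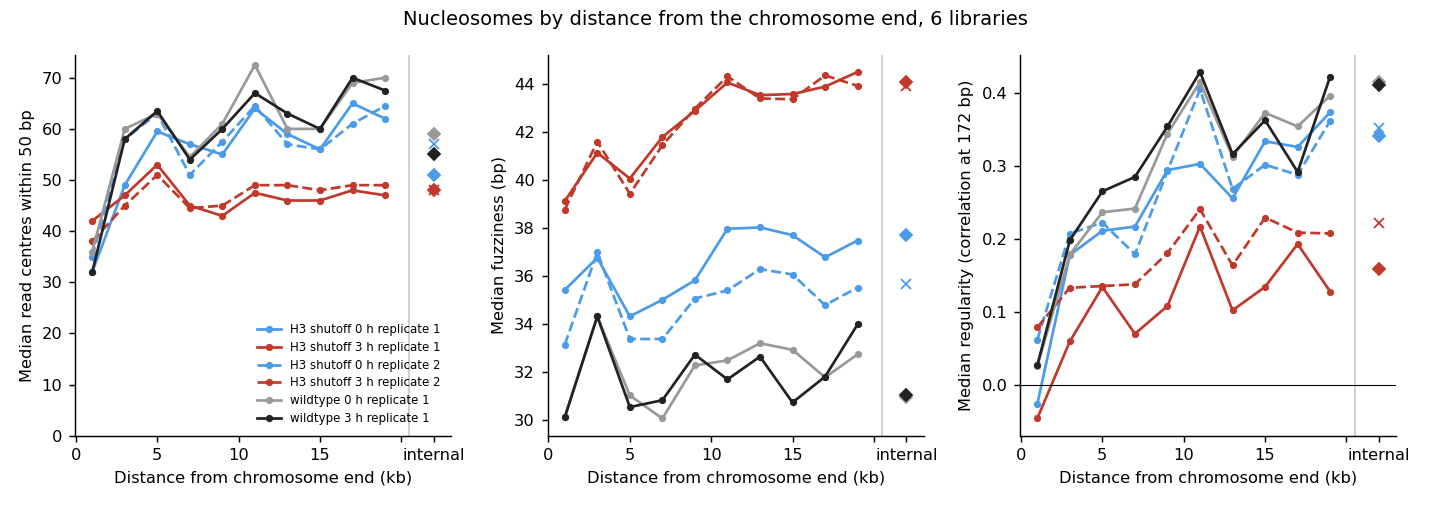
Median count per nucleosome, median fuzziness in bp and median regularity in 2 kb steps from the chromosome end (x axis, kb), with 1 line for each of the 6 libraries and the internal medians as single symbols at the right (diamonds for replicate 1, crosses for replicate 2). Regularity lies near 0 in the first 2 kb in all libraries. In wildtype at 0 h it is 0.414 from 10 to 12 kb and 0.312 from 12 to 14 kb.

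At 3 h members had lower counts, larger fuzziness and lower regularity in both H3 shutoff pairs, and their fuzziness and regularity changes were smaller than those of the interior. The median member count went from 56 to 46 in pair 1 and from 57 to 47 in pair 2, and from 61 to 59 in wildtype. Median fuzziness went from 36.6 to 42.6 bp in pair 1 and from 35.0 to 42.4 bp in pair 2, while wildtype stayed at 32.1 bp at both times. In both readouts the H3 shutoff libraries at 3 h did not overlap those at 0 h. Median regularity over the ends went from 0.311 to 0.171 in pair 1 and from 0.350 to 0.241 in pair 2, and was 0.367 and 0.377 in wildtype. Counts were taken at fixed positions, and in H3 shutoff the nearest called nucleosome (within 80 bp) lay further off at 3 h. Its median distance for members went from 5 to 17 bp in pair 1 and from 3 to 12 bp in pair 2. For internal nucleosomes it went from 5 to 17 bp and from 4 to 13 bp, and for wildtype members at 3 h it was 3 bp. The part of such shifts in the lower counts was not tested.

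Set against the interior, members changed by −0.11 and −0.04 more on the log2 count scale in pairs 1 and 2 (mean −0.08 ± 0.05, SD, n = 2 pairs), with 0.03 in wildtype. This value depended on the choices made, since it was 0.0090 within 10 kb of an end, and over distinct intervals it was −0.052 in pair 1 and 0.0097 in pair 2. Their fuzziness change less the internal change was −0.520 bp in pair 1, −1.21 bp in pair 2 and −0.120 bp in wildtype. The regularity change at the ends lay above the internal change by 0.0680 and 0.0451 in the 2 pairs (mean 0.0566 ± 0.0162, SD, n = 2 pairs) and by 0.0150 in wildtype. As shares of the 0 h value, the ends kept 55.0% and 69.0% of their median regularity and the interior kept 48.0% and 63.2%, while in wildtype the shares were 103% and 98.5%. No p-value is given for these values, since an exact permutation test of 2 values against 2 cannot give a 2-sided p below 0.333.

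The change was not even along the 20 kb. In the outermost 2 kb, which held 239 of these nucleosomes, the median count went from 32 to 42 in pair 1 and from 35 to 38 in pair 2, and in wildtype it went from 36 to 32. Both H3 shutoff libraries at 3 h lay above both at 0 h, the reverse of the order in the 20 kb as a whole. Relative to internal nucleosomes the count change of the outermost 2 kb was 0.47 and 0.31 on the log2 scale (mean 0.39 ± 0.11, SD, n = 2 pairs) and −0.07 in wildtype. Over distinct intervals only, with identical intervals counted once, it was 0.18 and 0.24 (mean 0.21), so the direction held and the size was smaller. The fuzziness change there, less that of the interior, was −3.53 bp in pair 1 and −4.01 bp in pair 2 (−0.155 bp in wildtype). Regularity, already near 0, was −0.0460 and 0.0786 at 3 h.

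Counting all read centres of the outermost 2 kb, which does not use nucleosome calls, gave the same direction. The median of the 32 ends went from 568.5 to 642 reads in pair 1 and from 542.5 to 641 in pair 2, and from 503.5 to 493 in wildtype. Reads were higher at 3 h in both H3 shutoff pairs at 21 of the 32 ends, beside 37.3% of internal steps, and lower in both at 2, beside 32.6%. In wildtype they were higher at 7 ends. By the median relative count of its nucleosomes, the outermost 2 kb was above internal in both pairs at 22 of 32 ends, beside 34.2% of internal 2 kb steps, and below internal in both pairs at 0 ends, beside 35.6%. At 13 of those 22 ends the wildtype value was below internal, but over all 32 ends it was above internal at only 12.

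From 2 to 4 kb the relative count change was already 0.10 in pair 1 and −0.12 in pair 2, and from 4 to 6 kb it was −0.05 and −0.13. Beyond 6 kb it lay between −0.25 and −0.15 in pair 1 and between −0.19 and 0.04 in pair 2, so that pair 1 was below internal in every step there and pair 2 was not. Wildtype lay between −0.07 and 0.08 over all steps. The fuzziness change was 2.39 bp and 3.98 bp in the first 2 kb of pairs 1 and 2, and 6.99 bp and 7.81 bp from 18 to 20 kb, beside internal changes of 5.92 bp and 7.99 bp. The regularity change was −0.0326 and 0.00396 in the first 2 kb and −0.171 and −0.157 from 18 to 20 kb, beside −0.179 and −0.120 for internal steps.

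**Figure D2:**
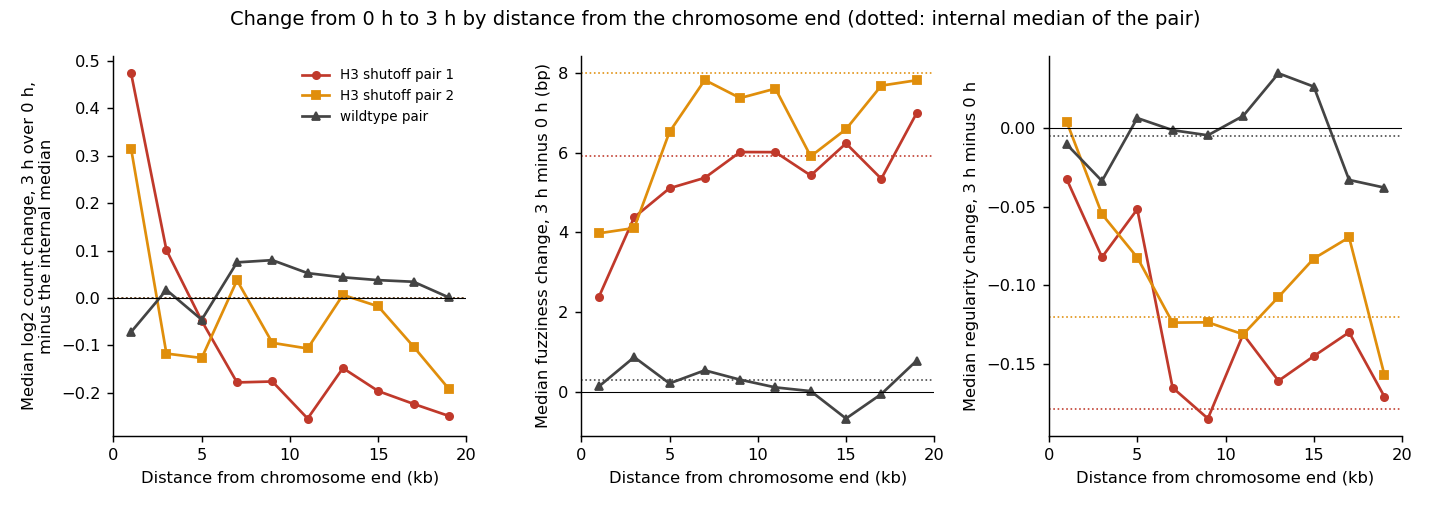
Change from 0 h to 3 h (y axes) in log2 count less the internal median, in fuzziness (bp) and in regularity, with internal medians dotted, in 2 kb steps from the chromosome end (x axis, kb), 1 line for each H3 shutoff pair and 1 for the wildtype pair. In the outermost 2 kb the count change is 0.47 for pair 1, 0.31 for pair 2 and −0.07 for wildtype.

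The starting count of a nucleosome moved with its change, so the outermost nucleosomes were also compared with internal ones of like depth. These depth bins, of wildtype 0 h count, were chosen after the values had been seen. Among internal nucleosomes the relative log2 change ran from 0.26 at 6 to 20 read centres to −0.47 above 100 in pair 1, and from 0.70 to −0.44 in pair 2. The outermost 2 kb held 70 nucleosomes in the shallowest bin and 36 in the deepest. In pair 1 their changes were 0.40, 0.61, 0.42, 0.39 and 0.52 from the shallowest bin to the deepest, above the internal values of 0.26, 0.37, 0.18, −0.07 and −0.47 in all 5 bins. Pair 2 gave 0.80, 0.45, −0.04, 0.08 and −0.05, beside internal values of 0.70, 0.40, 0.12, −0.14 and −0.44, so the bin of 41 to 60 read centres lay below internal and the 2 shallowest bins lay only a little above it.

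Nucleosomes from 6 to 20 kb behaved otherwise in the same comparison. Their changes were 0.05, 0.00, −0.12, −0.22 and −0.51 in pair 1, below the internal value in all 5 bins. In pair 2 they were 0.49, 0.25, 0.08, −0.13 and −0.37, below internal in the 3 shallowest bins and above it in the 2 deepest. In wildtype, whose 0 h library also set the bins, the outermost 2 kb gave 0.32, −0.06, −0.16, −0.10 and −0.16 beside internal values of 0.20, −0.01, −0.05, −0.03 and 0.05. The difference between the outermost 2 kb and the interior was thus largest for deeply covered nucleosomes in pair 1, and both pairs had it above 60 read centres.

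**Figure D3:**
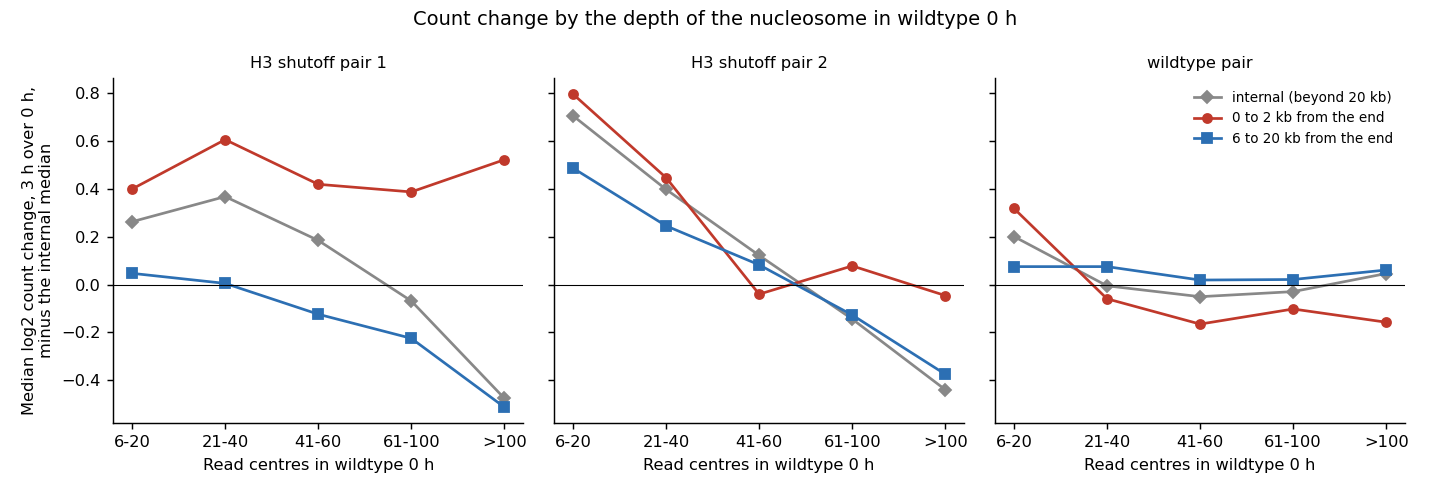
Median relative log2 count change from 0 h to 3 h (y axis) by wildtype 0 h count of the nucleosome (x axis, read centres in 5 bins) for internal nucleosomes, the outermost 2 kb and the stretch from 6 to 20 kb, in both H3 shutoff pairs and the wildtype pair. Above 100 read centres the outermost 2 kb gives 0.52 and −0.05 and the interior −0.47 and −0.44.

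Ends with a gene named YRF1, for a Y' helicase, could share reads with each other, and they were set apart by the gene order of the RefSeq R64 assembly, which was used for names only. The grouping rests on that gene name, and Y' sequence at the other ends was not mapped. Of the 32 ends, 7 (4 right, 5 right, 7 right, 12 right, 14 left, 15 right and 16 left) have a YRF1 gene among the genes next to the end. In their outermost 2 kb, with 47 nucleosomes, the median count went from 32 to 50 in pair 1 and from 43 to 49 in pair 2, and from 51 to 43 in wildtype. At the other 25 ends, with 192 nucleosomes, it went from 30.5 to 41 and from 32.5 to 36, and from 33 to 30 in wildtype. Both groups of ends therefore had higher counts at 3 h in both H3 shutoff pairs, with relative log2 changes of 0.61 and 0.34 at the YRF1 ends and of 0.40 and 0.25 at the others. Over the whole 20 kb the 7 ends had −0.05 and −0.02 and the other ends −0.13 and −0.04.

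End by end, the median change in fuzziness was positive and, at most ends, regularity was lower at 3 h in both pairs. Regularity was lower at 3 h in both pairs at 27 of 32 ends, beside 98.6% of internal 20 kb segments. Its change lay above the internal median, a smaller loss, in both pairs at 21 ends and below it in both at 3, where the internal segments gave 33.9% for either. By the median of the changes of its single nucleosomes, fuzziness was larger in both pairs at all 32 ends, as it was in 100% of internal segments. The increase was smaller than the internal median in both pairs at 17 ends (39.3% of internal segments) and larger in both at 8 (39.2%).

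For counts the ends divided. The relative change was below 0 in both pairs at 14 ends (43.8%, beside 36.3% of internal segments) and above 0 in both at 7 (21.9%, beside 33.5%), and had opposite signs at the other 11. At 12 of the 14 ends wildtype was above 0, and at 4 of the 7 it was below, while over all ends it was above 0 at 22 and below at 10. Over single ends the relative log2 change ranged from −0.53 to 0.37 in pair 1, from −0.41 to 0.18 in pair 2 and from −0.14 to 0.21 in wildtype.

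**Figure D4:**
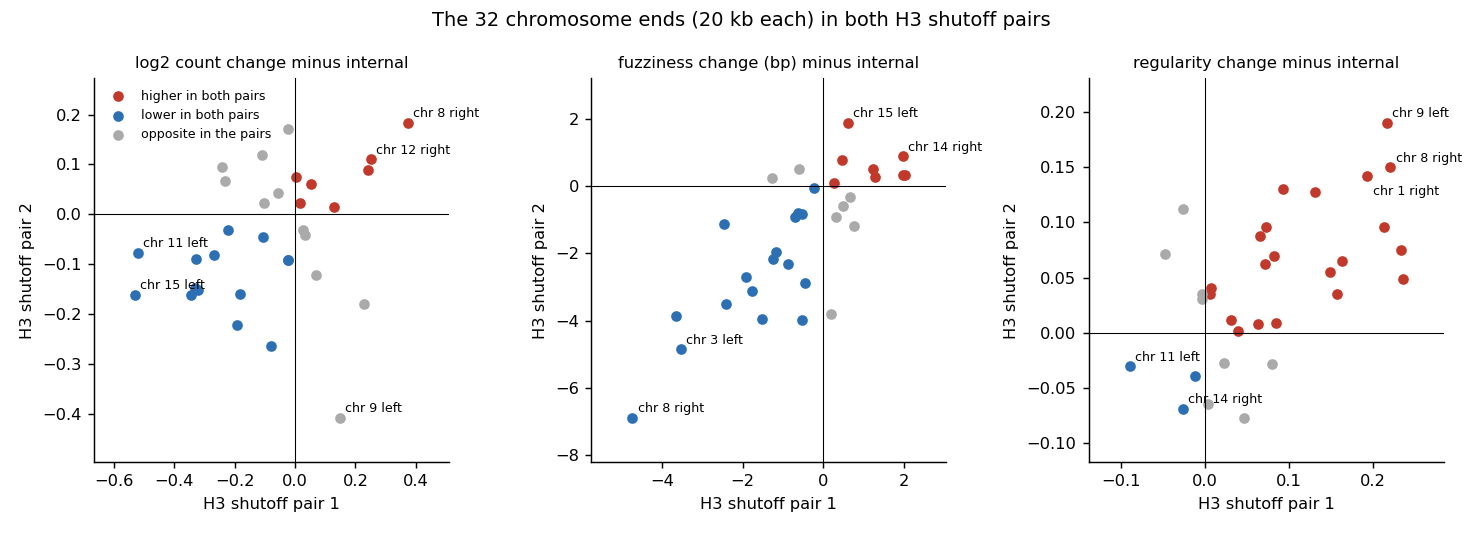
Each point is 1 of the 32 chromosome ends, with its change relative to the interior in H3 shutoff pair 1 (x axis) and pair 2 (y axis) for log2 count, fuzziness in bp and regularity. For regularity 21 ends are above 0 in both pairs and 3 are below in both, and the right end of chromosome 8 lies at 0.37 and 0.18 for counts.

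The right end of chromosome 8 had the highest relative counts of the ends that moved one way in both pairs, and the smallest increase in fuzziness. In R64 its outermost named genes are IMD2, for an enzyme of guanine nucleotide synthesis, and PHO12, an acid phosphatase. Its median count was 36 and 35 at 0 h and 40 at 3 h in both H3 shutoff pairs, and 35 at both times in wildtype. Fuzziness went from 30.3 to 31.8 bp in pair 1 and from 31.96 to 31.4 bp in pair 2, and the median increase over its nucleosomes was 1.19 and 1.09 bp. The relative log2 count change was 0.37 and 0.18 (0.07 in wildtype). This end had the lowest regularity of all ends at 0 h in all 3 cultures, at 0.109, 0.137 and 0.145, and its regularity at 3 h was 0.122, 0.142 and 0.159.

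Next in relative counts were the right ends of chromosomes 12 and 7, both with YRF1 genes. The right end of chromosome 12, where PAU4 follows the helicase genes, had median counts that went from 46 to 53 in pair 1, from 51 to 48 in pair 2 and from 55 to 48 in wildtype. Its relative log2 change was 0.25 and 0.11 with −0.12 in wildtype, although in pair 2 the count itself was lower at 3 h. The right end of chromosome 7, which carries COS6, PAU12 and the maltose genes MAL11, MAL12 and MAL13, had counts that went from 48 to 45, from 52 to 42 and, in wildtype, from 61 to 51. Its relative change was 0.24 and 0.09 with −0.14 in wildtype, so its counts were lower at 3 h in both strains and stood out only against the interior.

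At the opposite extreme were the left end of chromosome 15, the left end of chromosome 11 and the right end of chromosome 10. The left end of chromosome 15, with the aryl-alcohol dehydrogenase gene AAD15, BDS1 and PAU20, had median counts of 66.5 and 57 at 0 h and of 45 in both pairs at 3 h, and 63.5 and 61.5 in wildtype. Its relative log2 change was −0.53 and −0.16 (0.12 in wildtype), and its fuzziness was larger at 3 h by 6.53 and 9.89 bp, among the largest increases of all ends. The left end of chromosome 11, with PAU16, the ferric reductase gene FRE2, COS9 and the lactate permease gene JEN1, went from 62 to 41 in pair 1 and from 59.5 to 46 in pair 2, and from 68 to 65 in wildtype. Its relative change of −0.52 and −0.08 (0.07 in wildtype) was much larger in pair 1 than in pair 2. The right end of chromosome 10, with COS5, the maltose permease gene MPH3 and the hexose transporter gene HXT16, went from 64 to 46 and from 71 to 47, and from 74 to 71 in wildtype. At all 3 ends the H3 shutoff counts at 3 h lay below those at 0 h without overlap.

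Loss of array order was largest at the left end of chromosome 11, the right end of chromosome 14 and the left end of chromosome 7. Regularity at the left end of chromosome 11 went from 0.415 to 0.117 in pair 1 and from 0.431 to 0.256 in pair 2, and was 0.507 and 0.501 in wildtype. At the right end of chromosome 14, with PAU6, COS10 and HXT17, it went from 0.431 to 0.196 and from 0.459 to 0.245, with 0.465 and 0.480 in wildtype. This end also had the largest mean increase in fuzziness, 7.90 and 8.89 bp. The left end of chromosome 7, with COS12 and PAU11, went from 0.316 to 0.111 and from 0.351 to 0.141, with 0.351 and 0.400 in wildtype, and here pair 2 was close to pair 1.

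The 3 ends with the smallest fall in regularity, by mean over the pairs, were not alike in level. At the right end of chromosome 8 and the left end of chromosome 9 regularity was higher at 3 h in both pairs. The right end of chromosome 1, with the acid phosphatase gene PHO11 and the flocculin gene FLO1, had the highest 20 kb regularity in all 6 libraries. It was 0.510 and then 0.495 in pair 1, 0.527 and then 0.523 in pair 2, and 0.573 and 0.593 in wildtype. That value spans uneven depth, with 16 to 46 reads from 12 to 14 kb and 1674 to 2368 from 4 to 6 kb. Uneven depth also enters the correlation, and its part was not tested. In the outermost 2 kb of this end regularity went from 0.322 to 0.0687 and from 0.524 to 0.173 in the pairs. From 14 to 16 kb it went from 0.170 to 0.212 and from 0.0587 to 0.137. Values for the right end of chromosome 8 are given above and were the lowest at 0 h. The left end of chromosome 9, with PAU14, VTH1 and the isomaltase gene IMA3, went from 0.291 to 0.299 in pair 1 and from 0.263 to 0.309 in pair 2, with 0.301 and 0.196 in wildtype. Its 2 kb steps from 10 to 16 kb held at most 109 reads in any library, and its relative count changes had opposite signs, 0.15 in pair 1 and −0.41 in pair 2. On fuzziness, the left end of chromosome 3, with the transporter genes GEX1 and VBA3 and 61 members after the stretch left out, had the smallest increase after the right end of chromosome 8, at 2.39 and 3.12 bp.

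Single nucleosomes were tested with edgeR's quasi-likelihood test over all nucleosomes of the genome whose mean count was 10 or more, with culture as a block and Benjamini-Hochberg adjustment. Of 2537 members tested, 61 were called lower at 3 h in H3 shutoff (2.40%, beside 2.18% of all nucleosomes tested) and 63 were called higher (2.48%, beside 1.97%) at an adjusted p under 0.05. These shares are near those of the genome. The calls were scattered, with at least 1 at 29 of the 32 ends, only lower calls at 5 ends, only higher calls at 6 and both at the rest of the 29. Of the 124 called members, 61 of those lower and 62 of those higher had the same sign in both pairs. Of neighbouring calls, 12 pairs lay under 200 bp apart. With library totals in place of TMM scaling, the calls were 247 lower and 39 higher, and the median change of all nucleosomes tested moved from 0.02 to −0.22 on the log2 scale, so each direction is relative to the bulk of the genome. DESeq2 made 0 calls in either direction at the same threshold, but its own filter left only 228 of the members, 31 of those called by edgeR among them, with an adjusted p. It had 64 lower and 55 higher at an unadjusted p under 0.05, beside 271 and 238 in edgeR. Counted over distinct intervals only, the calls were 0 and 0, with 85 and 79 at an unadjusted p under 0.05. Without the culture block edgeR called 25 lower and 25 higher. A fit without pair 1 or pair 2 has only wildtype 3 h against 0 h for its spread, so its calls are not given. How far the calls rest on either pair was not tested.

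By distance, the nucleosome calls separated into an outer zone with mostly higher calls and an inner zone with mostly lower ones. Calls of whole 2 kb steps, given below, were more often lower than higher from 2 to 6 kb. The outermost 2 kb had 11 higher and 2 lower calls, the step from 2 to 4 kb 12 and 3, and the step from 4 to 6 kb 16 and 1. In that last step the median relative count change was nevertheless −0.05 in pair 1 and −0.13 in pair 2. From 16 to 20 kb the test gave 0 higher and 17 lower calls, 7 in the first step and 10 in the second. With the boundary set at 6 kb after seeing these values, 39 of 730 nucleosomes tested were higher and 6 lower in the outer zone, and 24 of 1807 were higher and 55 lower in the inner zone, beside 1.97% higher and 2.18% lower of all nucleosomes tested. None of these calls was made over distinct intervals or by DESeq2, as given above. The difference between the zones was not tested.

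**Figure D5:**
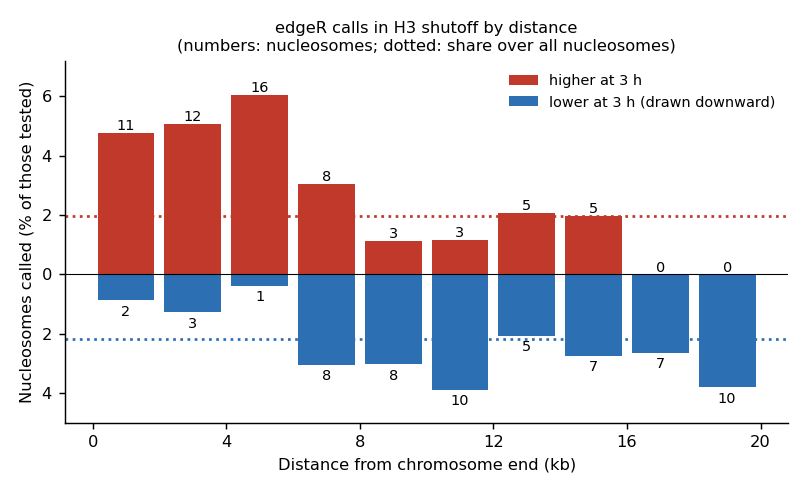
Member nucleosomes called higher (upward bars) and lower (downward bars) at 3 h in H3 shutoff by edgeR, as a percentage of those tested (y axis), in each 2 kb step from the chromosome end (x axis, kb), with their number at each bar and the share over all nucleosomes dotted. The 3 steps nearest the end hold 39 higher and 6 lower calls, and the steps from 16 to 20 kb hold 0 higher and 17 lower.

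The strongest lower calls, ordered by the pair with the smaller change, lay from 5369 to 14169 bp from an end. The nucleosome at 8563 to 8737 on chromosome 15 (sacCer1 coordinates throughout), 8650 bp from the left end, went from 141 to 47 read centres in pair 1 and from 150 to 50 in pair 2, and from 173 to 159 in wildtype. The fitted log2 change was −1.35 (edgeR adjusted p = 0.00326). Its H3 shutoff counts at 3 h were a small part of those of every other library. On the right arm of chromosome 7 the adjacent nucleosomes at 1076688 to 1076862 and at 1076863 to 1077037 were both called. The first went from 162 to 45, from 160 to 57 and from 179 to 146 in wildtype (−1.43, edgeR adjusted p = 0.00180), and the second from 70 to 24, from 79 to 21 and from 87 to 75 (−1.49, edgeR adjusted p = 0.00441). The second was among the sharpest members, with a fuzziness that went from 7.95 to 28.4 bp in pair 1 and from 17.2 to 32.5 bp in pair 2, beside 9.72 and 9.39 bp in wildtype. At 5282 to 5456 on chromosome 11 counts went from 99 to 37, from 100 to 34 and from 114 to 104 in wildtype (−1.25, edgeR adjusted p = 0.00811). In all 4 the H3 shutoff libraries at 3 h were far below the other 4 libraries. Over distinct intervals their log2 changes were −0.58, −0.63, −0.32 and −0.57 in the order given, and none passed (edgeR adjusted p from 0.327 to 0.897).

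The strongest higher calls included 2 at the right end of chromosome 12 and 1 within the outermost kilobase of chromosome 10. At 1071077 to 1071251 on chromosome 12, 7009 bp from the end, counts went from 88 to 232 in pair 1 and from 70 to 179 in pair 2, and from 123 to 133 in wildtype (1.61, edgeR adjusted p = 0.000261). At 1072759 to 1072933, 5327 bp from the end, they went from 41 to 136 and from 50 to 124, and from 54 to 56 in wildtype (1.75, edgeR adjusted p = 4.53e-05). Both were sharper at 3 h in H3 shutoff, against the general direction, with fuzziness going from 49.7 to 40.1 bp and from 54.4 to 41.5 bp at the first and from 53.7 to 32.8 bp and from 49.4 to 39.4 bp at the second. At 744400 to 744574 on chromosome 10, 959 bp from the right end, counts went from 56 to 130 and from 47 to 141, while wildtype went from 32 to 13 (1.63, edgeR adjusted p = 0.000144). The nucleosome at 802397 to 802571 on chromosome 2 was shallow, with 3 and then 18 read centres in pair 1, 7 and then 27 in pair 2, and 17 and then 6 in wildtype (2.41, edgeR adjusted p = 0.0468), and its wildtype count at 0 h was close to the H3 shutoff counts at 3 h. Over distinct intervals the log2 changes were 0.68 and 0.68 for the nucleosomes on chromosome 12, 0.91 on chromosome 10 and 1.90 on chromosome 2, and none passed (edgeR adjusted p from 0.115 to 0.491).

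Whole 2 kb steps, tested in the same way on all their read centres, had larger counts and gave more calls per step. Of 315 steps within 20 kb of an end, 30 were called lower (9.52%, beside 6.98% of all steps) and 15 higher (4.76%, beside 8.02%). In the outer 6 kb 5 of 96 steps were lower and 7 higher, and from 6 to 20 kb 25 of 219 were lower and 8 higher. Within the outer zone, 3 were lower and 2 higher from 2 to 4 kb, and 2 and 0 from 4 to 6 kb. Of the outermost steps 0 were called lower and 5 were called higher, those of 6 left (0.46), 12 left (0.41), 14 right (0.44), 16 left (0.60) and 16 right (0.39 on the log2 scale). DESeq2, which gave an adjusted p to 71 of the steps, called 3 lower and 0 higher. Calls without pair 1 or without pair 2 are not given, for the same reason as for nucleosomes.

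The lowest called step lay 18 to 20 kb from the left end of chromosome 10, where reads went from 1374 to 889 in pair 1 and from 1423 to 890 in pair 2, and from 1495 to 1094 in wildtype (−0.66, edgeR adjusted p = 1.87e-05). Wildtype was lower at 3 h as well, and the difference between strains of −0.22 did not pass its test (edgeR adjusted p = 0.590). At 8 to 10 kb from the right end of chromosome 14, reads went from 1683 to 1029 and from 1588 to 1063, and from 1787 to 1538 in wildtype (−0.65, edgeR adjusted p = 0.000129). The step from 2 to 4 kb at the right end of chromosome 5, a YRF1 end, went from 282 to 270 in pair 1 and from 487 to 225 in pair 2, and from 432 to 335 in wildtype (−0.61, edgeR adjusted p = 0.0309). The last call rests on pair 2, since the log2 change in pair 1 was −0.06 against −1.11 in pair 2. Over distinct intervals the values were −0.26 at 10 left, which still passed (edgeR adjusted p = 0.0279), −0.14 at 14 right (edgeR adjusted p = 0.248) and 0.035 at 5 right (edgeR adjusted p = 0.951).

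The highest called step lay 6 to 8 kb from the left end of chromosome 13, with 291 and 256 reads at 0 h and 499 and 438 at 3 h, and with 218 and 168 in wildtype (0.77, edgeR adjusted p = 0.00552). At the left end of chromosome 16 the outermost 2 kb, next to a YRF1 gene, went from 640 to 1145 and from 877 to 1144, and was 805 and 810 in wildtype (0.60, edgeR adjusted p = 8.56e-05). From 12 to 14 kb at the left end of chromosome 12 reads went from 460 to 602 and from 378 to 574, and from 306 to 289 in wildtype (0.48, edgeR adjusted p = 0.0460). In all 3 steps the H3 shutoff libraries at 3 h were above the other 4 libraries. Over distinct intervals the values were 0.42 at 13 left, which still passed (edgeR adjusted p = 0.0241), 0.17 at 16 left (edgeR adjusted p = 0.425) and 0.25 at 12 left (edgeR adjusted p = 0.181).

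Whether the change differed between the strains was tested as a contrast of the same edgeR fits, which rests on 1 wildtype pair. Of the members 1 nucleosome passed in each direction (0.0394% each, beside 0.0722% lower and 0.0917% higher of all nucleosomes), and without the block there were 0, with 213 and 135 at an unadjusted p under 0.05. The nucleosome at 744400 to 744574 on chromosome 10, described above, changed more upwards in H3 shutoff, by 2.84 on the log2 scale (edgeR adjusted p = 0.0286). The other, at 17046 to 17220 on chromosome 3, had 147 and 62 read centres in pair 1, 55 and 37 in pair 2, and 40 and 102 in wildtype, a difference of −2.15 (edgeR adjusted p = 0.0363). Its H3 shutoff counts at 0 h differed between the cultures by more than its change in pair 2.

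For whole steps, 5 were lower in H3 shutoff than in wildtype by this contrast (1.59%, beside 2.12% of all steps) and 1 was higher (0.317%, beside 3.43%). Without the culture block 0 passed in either direction, with 50 lower and 16 higher at an unadjusted p under 0.05. The largest difference was at 18 to 20 kb from the right end of chromosome 1, where reads went from 622 to 356 and from 432 to 463 in H3 shutoff and from 418 to 647 in wildtype (−0.999, edgeR adjusted p = 0.0236). At 18 to 20 kb from the left end of chromosome 5 they went from 1433 to 862 and from 1115 to 869, and from 1116 to 1276 in wildtype (−0.76, edgeR adjusted p = 0.0137). At 6 to 8 kb from the left end of chromosome 3 they went from 868 to 639 and from 856 to 730, and from 763 to 1010 in wildtype (−0.76, edgeR adjusted p = 0.0210). The other lower steps were at 16 to 18 kb of 4 right and 6 to 8 kb of 5 left, where the pairs moved in opposite directions, as they did at 1 right. The single higher step, at 6 to 8 kb of 12 left, went from 793 to 1317 in pair 1 and from 947 to 1020 in pair 2, and from 1075 to 907 in wildtype (0.65, edgeR adjusted p = 0.0342).

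Read depth itself varied strongly among the steps near the ends. Of the 315 steps, 6 had under 200 reads in all 6 libraries, among them 12 to 14 kb at the right end of chromosome 1 with 16 to 46 reads, and the 3 steps from 10 to 16 kb at the left end of chromosome 9. In 4 steps every library had over 2000 reads, and all 4 lie at YRF1 ends (5 right, 12 right and 15 right). The step from 2 to 4 kb at the right end of chromosome 15 was the deepest, where reads went from 2750 to 4019 in pair 1, from 4363 to 3734 in pair 2 and from 4332 to 3536 in wildtype, so its pairs moved in opposite directions.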

How the data were processed

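MNase-seq of 6 yeast libraries was used. The authors aligned single-end reads to sacCer1 with Bowtie 0.12.6, extended them to the mean fragment length of each library, removed reads of the ribosomal DNA, drew the same number of reads per library and called nucleosomes; the deposited files hold read intervals without strand and, per called nucleosome, the counts of read centres. From the intervals, read centres were recounted at the wildtype 0 h dyads (100% of the deposited wildtype counts were identical). Fuzziness needed 10 read centres and regularity 100 per step; density was smoothed with a Gaussian of SD 10 bp and limited at its 99th percentile; internal 20 kb segments needed 20 nucleosomes. Tests were run in edgeR 4.0.16 (R 4.3.3) on all 6 libraries, with TMM and culture as a block, and in DESeq2 1.42.0 as an alternative. In edgeR 1 spread served all features of like abundance. Other values used Python 3.11.15 with numpy 2.4.6 and pandas 2.3.3. The scripts were tested on simulated data. P-values measure the spread between 2 H3 shutoff cultures, and read counts cover counting error only in part, since identical intervals may be copies.

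The samples of a pair share a culture by the study's design; their deviations from the group means correlated at −0.0888 over nucleosomes and −0.14 over 2 kb steps. Members, gene names and lists were chosen with earlier results of these data known. Text names ends, nucleosomes and steps by a set rule. Among those moving one way in both pairs, these were the 3 lowest and 3 highest ends by mean relative count. The 3 largest and 3 smallest regularity falls were added, with a rise ranked as smaller than any fall. So were the 2 largest and smallest fuzziness changes. Called nucleosomes were the 4 lowest and highest by the pair change nearer 0, and called steps the 3 lowest and highest. Steps of low or high depth, the 6 kb boundary and the depth bins were chosen after values had been seen. Gene order came from RefSeq R64 (6477 genes), whose coordinates were not used.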

Additional observations from a re-analysis of the deposited data

Results flagged for a closer look

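The edgeR contrast of the change between strains passed for 6 of the 2 kb steps and for 2 nucleosomes within 20 kb of an end, each resting on 1 wildtype pair. Further differences in direction between the strains were not tested: the median relative log2 count change of the outermost 2 kb was 0.394 as a mean of the H3 shutoff pairs, both above 0, with wildtype below 0, and the median over all members was −0.0769 as a mean of the pairs, both below 0, with wildtype above 0.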

How the results depend on the processing

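The gain of the outermost 2 kb in log2 count and its smaller fuzziness increase kept their sign under all alternatives run. Among alternatives with both H3 shutoff pairs, the numbers of called nucleosomes moved by over 1.5 times in at least 1 direction. The 1 exception was the removal of the filter on low counts. Within 10 kb of an end the members' log2 difference from the interior turned to 0.0090 (0.019 and −0.00052 in the pairs), 15 ends were above internal and 4 had a larger fuzziness increase in both pairs, and the differences were −1.44 bp and 0.0757. Over distinct intervals the members differed by −0.021 (−0.052 and 0.0097 in the pairs), the outermost 2 kb by 0.21 and −2.56 bp, 4 ends had a larger fuzziness increase, 1 a larger regularity loss, 0 and 0 nucleosomes were called, 8 steps were called higher, and the step at 2 to 4 kb of chromosome 5 right turned to 0.035. The outermost fuzziness difference was −2.22 bp with fuzziness as deposited, −2.67 bp within 73 bp (where 5 ends had a larger increase) and −3.10 bp without the YRF1 ends, an alternative added after seeing the data. Without the upper limit on density 5 ends had a larger regularity loss.

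Without the replicate block (culture), edgeR called 25 nucleosomes lower and 25 higher, 9 steps higher, and 0 nucleosomes and 0 steps in either direction for the difference between strains. With library totals it called 247 and 39 nucleosomes, 2 nucleosomes lower and 4 steps higher for that difference. DESeq2 called 0 and 0 nucleosomes and 3 and 0 steps. Crossing the pair numbers, tried after seeing the data, gave 113 and 96 nucleosomes and 59 steps lower. Leaving out either H3 shutoff pair, which leaves the lone pair to borrow its spread from the other cultures, gave 1 to 11 nucleosomes lower, 1 to 17 higher, 1 to 12 steps lower and 0 to 8 higher. With 1 pair alone, 12 to 13 ends were above internal in counts, 10 to 13 had a larger fuzziness increase and 7 a larger regularity loss. Of the 14 named nucleosomes and steps, edgeR calls were lost for 3 without the block. Over distinct intervals 12 were lost, 1 of them with its sign turned. With either H3 shutoff pair left out all 14 kept their sign, though the step at 2 to 4 kb of chromosome 5 right was −0.074 without pair 2. DESeq2 gave an adjusted p to 3 of the 14 and lost 1.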
